A study of Mus musculus with 3 samples.

Results

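The genes of MHC class II antigen presentation were followed in Langerhans cells, the dendritic-like sentinels of the epidermis, across 3 single-cell libraries. The set held 10 of the 34289 features counted and was given by name: the chain genes H2-Aa, H2-Ab1 and H2-Eb1, the invariant chain gene Cd74, the peptide editor genes H2-DMa, H2-DMb1 and H2-DMb2, the editor inhibitor genes H2-Oa and H2-Ob, and Ciita. All 10 symbols were listed in every library. The cells came from ear epidermis of male Cd1 mice, an outbred stock, and each group was 1 library. The untreated mice had received only the depilatory Nair, which the labels' protocol gives for control mice. The ears of the croton oil group had been treated with an acetone, croton oil and olive oil mixture, and those of the microneedle group had been punched repeatedly with a microneedle array. Both were taken 48 h after the first treatment. Age, the number of mice behind a library and whether mice were pooled are not given by the labels, and no library holds acetone and olive oil without croton oil, so the parts of the mixture cannot be told apart. Epidermis was detached with trypsin, dead cells were removed on magnets, and Langerhans cells were then enriched magnetically.

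Class II molecules are heterodimers of an alpha and a beta chain that carry peptides of endocytosed proteins to CD4+ T cells. They assemble on the invariant chain encoded by Cd74, which blocks the groove and is cut down by lysosomal proteases, cathepsin S above all. The DM heterodimer then exchanges the remaining invariant chain peptide for antigenic peptide, and the DO heterodimer holds DM back. CIITA, encoded by Ciita, is the coactivator on which transcription of the class II chain genes depends. It is recruited by factors bound to a conserved set of promoter boxes, of which the Y box is bound by NF-Y. Langerhans cells that mature and leave the skin switch on the chemokine receptor gene Ccr7, and dendritic cells are known to reduce class II synthesis as they mature while surface class II becomes long-lived.

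Of the 10 genes, 8 lie in the MHC on chromosome 17, between 34311314 (the start of H2-Oa) and 34535648 (the end of H2-Eb1) in GRCm39 with the GENCODE M39 annotation. Ciita lies at 10297923 to 10347694 of chromosome 16, and Cd74 lies outside the MHC. The word GATTGG, the inverted CCAAT box (read on both strands, CCAATC on the other), was searched from 250 bases before to 50 bases after the annotated start of the canonical transcript. It was present in 7 of the 8 MHC genes of the set, all but H2-DMb1, against 3962 of 21770 promoters, 18.2%. Other short words were searched too, present in 22.6% to 36.7% of promoters, and each was found in fewer of the 8 genes. GATTGG was not present in the windows searched for Ciita and H2-Ea, a class II chain gene outside the set. Cd74 was not searched. The sequence is that of the reference genome and not of these mice, so a missing match is read for that window only. The last bases of the H2-DMb1 sequence below resemble a stretch near the beginning of that of H2-DMb2. The windows of this pair are therefore offset, and H2-DMb1 past 50 bases after its annotated start was not searched. The promoters below are shown because these genes moved together or parted from the rest in the comparisons that follow. Each ends at the first transcribed base (position 1 follows -1), runs 5′ to 3′ on the gene's strand and has GATTGG in capitals.
H2-Aa: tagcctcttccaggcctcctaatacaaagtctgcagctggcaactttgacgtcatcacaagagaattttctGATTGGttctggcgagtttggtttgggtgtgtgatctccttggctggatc (chr17:34506797-34506917, minus strand; capitals begin at -49)
H2-Ab1: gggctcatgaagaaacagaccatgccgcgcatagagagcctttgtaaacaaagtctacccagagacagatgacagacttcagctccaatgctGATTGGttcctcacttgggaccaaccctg (chr17:34482063-34482183, plus strand; capitals begin at -28)
H2-DMa: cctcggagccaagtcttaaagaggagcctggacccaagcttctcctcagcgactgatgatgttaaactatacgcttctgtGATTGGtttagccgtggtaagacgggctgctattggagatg (chr17:34354440-34354560, plus strand; capitals begin at -40)
H2-DMb2: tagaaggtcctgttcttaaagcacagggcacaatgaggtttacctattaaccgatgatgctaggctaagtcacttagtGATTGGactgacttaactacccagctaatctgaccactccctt (chr17:34364054-34364174, plus strand; capitals begin at -42)
H2-Oa: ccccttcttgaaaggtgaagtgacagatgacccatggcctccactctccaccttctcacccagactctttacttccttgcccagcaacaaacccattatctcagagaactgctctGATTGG (chr17:34311194-34311314, plus strand; capitals begin at -5)
H2-DMb1: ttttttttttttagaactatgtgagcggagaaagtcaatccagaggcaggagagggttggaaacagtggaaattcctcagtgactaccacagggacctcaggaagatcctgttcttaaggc (chr17:34371926-34372046, plus strand; no match)

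A match is a run of letters and not a measured binding site. Reads of H2-DMb1 and H2-DMb2 are hard to separate where the transcripts match. The canonical transcripts were 94.11% identical over 1291 aligned bases. They were 74.82% identical over the 278 aligned of their last 300 bases, where reads of this assay fall. The pair differs more there, and how well the counts were divided between them was not tested. H2-Aa and H2-Eb1 overlap on opposite strands, and the strand setting of the count is not given in the sources used here.

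Cells with at least 500 genes and at most 10% mitochondrial UMIs (unique molecular identifiers, each a counted transcript molecule) were kept after likely doublets were removed. A Langerhans cell was then taken as one with Cd74 at 0.8% or more of its UMIs and at least 2 UMIs of Epcam, an adhesion molecule of epidermal cells. This gate held 8637 untreated cells (95.4% of those kept), 5917 croton oil cells (77.6%) and 5295 microneedle cells (81.7%). Their median depths were 11536, 12569 and 17333 UMIs respectively. Different clusters held most of them in each library. The untreated cells lay chiefly in a cluster led by Adgre4 (4440 cells) and one led by Ankrd55 (3083), the croton oil cells in one led by H2-Ea and C1qc (4659), and the microneedle cells in one led by Neb (4058). All 8 Langerhans cell markers, among them Cd207 (langerin), reached 20 CPM in each library, and none of 6 B cell markers did. Of 7 conventional dendritic cell markers, 4 reached it in untreated cells and 3 in each treated library (Flt3, Zbtb46 and Itgae in all 3), while Xcr1 and Clec9a were under 1 CPM. The 10 keratinocyte markers summed to 334, 336 and 88.1 CPM, with none at 0. In the gated cells the 15 monocyte and macrophage markers summed to 500 CPM (untreated), 2064 (croton oil) and 809 (microneedle), chiefly Apoe and C1qa, and none was at 0. The 10 T cell markers summed to 3.93, 76.4 and 12.9 CPM, with 2 at 0 in untreated. The part of these cells in the values below was not tested, except that leaving out gated cells with at least 2 UMIs of T cell or cell cycle markers changed none of the counts in the treatment comparisons. Between 30 and 49 cell barcodes of a library also occurred in another. Since Cd74 set the gate, its level is described only, and counts are over the other 9 genes. Levels are CPM, the counts scaled to a fixed total of summed UMIs, with exact Poisson 95% intervals that cover counting error only. A difference is the log2 ratio of CPM + 5, which understates changes of low genes. Genes with a mean of at least 20 CPM over the groups compared were compared, and one at least 1.5-fold apart was counted as different. With 1 library a group there is no replicate and no test, and a difference between mice or preparations cannot be told apart from one of treatment.

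The 3 chain genes and the invariant chain gene stayed within a narrow range. H2-Aa, the alpha chain of the A molecule, stood at 9550 CPM (95% interval 9532 to 9569) without treatment, 11384 (11361 to 11407) after croton oil and 9162 (9143 to 9181) after microneedles, the order kept below. H2-Ab1, its beta chain, stood at 8063, 10210 and 9180 CPM. H2-Eb1, the beta chain of the E molecule, ran the other way, at 8647, 7235 and 8444 CPM, so that croton oil cells held the most H2-Aa and H2-Ab1 and the least H2-Eb1. The lower H2-Eb1 was not seen in croton oil cells with no UMI of H2-Ea, another class II gene, where it stood at 9249 CPM, above the untreated level (0.10). The log2 differences from untreated were 0.25, 0.34 and -0.26 for croton oil and -0.06, 0.19 and -0.03 for microneedle, all below 1.5-fold. Cd74 was at 19352, 22068 and 19498 CPM. Ciita, at 265, 223 and 301 CPM, was 0.24 lower on the log2 scale after croton oil and 0.18 higher after microneedles, also below 1.5-fold.

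The peptide editor genes parted from each other. H2-DMa stood at 1142, 1035 and 1037 CPM and H2-DMb1 at 710, 799 and 752 CPM, none of them 1.5-fold from untreated. H2-DMb2, which encodes a second DM beta chain, was at 130 CPM (128 to 132) without treatment, 266 (262 to 269) after croton oil and 162 (159 to 165) after microneedles. Its log2 difference from untreated was 1.00 in croton oil, the one gene of the set at 2-fold there, and 0.31 in microneedle cells. In croton oil cells with no H2-Ea UMI it was 0.76, past 1.5-fold but short of 2-fold. After thinning each cell to 3000 UMIs, 30.9% of untreated, 49.5% of croton oil and 37.0% of microneedle cells held an H2-DMb2 UMI, against 75.3%, 87.8% and 86.4% unthinned. In keratinocytes outside the gate, which should lack the gene, the thinned shares were 3.85% to 5.39%. At full depth they were 25% to 31.7%, at 24878 to 50698 UMIs a cell.

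The inhibitor genes were low. H2-Oa, the DO alpha chain, was at 31.7 CPM (30.7 to 32.8) without treatment, 16.3 (15.4 to 17.2) after croton oil and 12.4 (11.7 to 13.1) after microneedles, so both treated libraries lay below the untreated one. The log2 differences were -0.79 and -1.08. H2-Oa passed the 20 CPM rule only through the untreated library. The shares of cells with an H2-Oa UMI were also lower in the treated libraries, 28.7%, 17.1% and 17.5% at full depth and 9.29%, 4.59% and 3.80% at 3000 UMIs, with 0.490% at 3000 UMIs in untreated keratinocytes and 9.75% at their full depth. H2-Ob, the DO beta chain, stood at 4.09, 11.2 and 2.84 CPM, under the 20 CPM rule in each, and was highest in croton oil cells. In croton oil cells with no H2-Ea UMI it was 3.83 CPM, so the higher level lay in the cells that held H2-Ea.

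**Figure D1:**
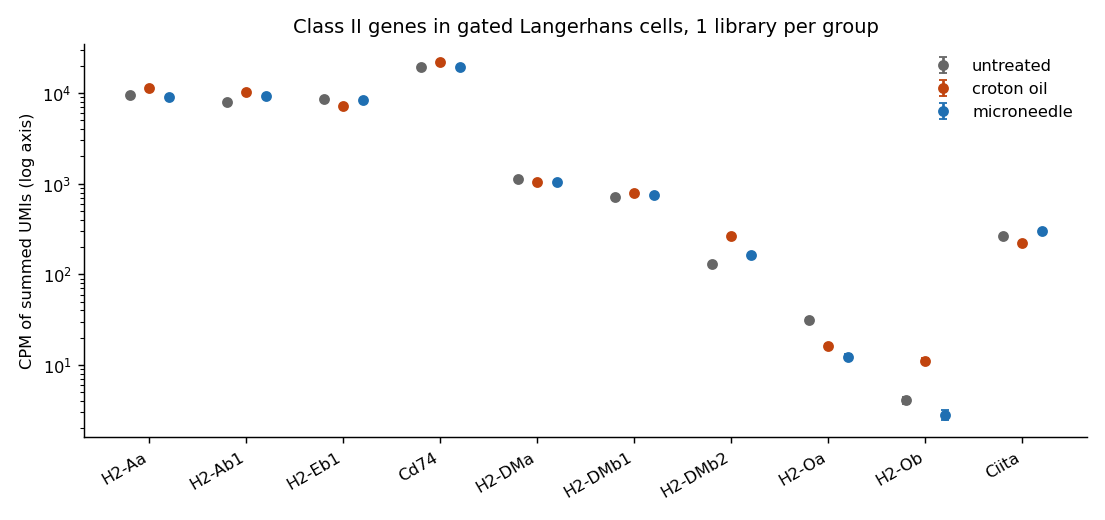
Levels of the 10 genes in gated Langerhans cells, as CPM on a log axis, with 1 point for each library and exact Poisson 95% intervals, mostly smaller than the points. The chain genes, Cd74, H2-DMa, H2-DMb1 and Ciita overlap closely across libraries, H2-DMb2 is highest in croton oil (266 CPM), and H2-Oa is highest in untreated cells (31.7 CPM).

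Set against all features, the class II genes differed about as often. After croton oil, 2 of the 8 genes compared differed at 1.5-fold (H2-DMb2 higher, H2-Oa lower), where 29.8% of 6337 features did, and 1 of 8 at 2-fold, where 9.80% did. After microneedles 1 of 8 differed at either fold (H2-Oa, lower), against 14.3% of 6344 features at 1.5-fold and 4.92% at 2-fold. Between the 2 treatments H2-DMb2 alone of 7 genes was 1.5-fold apart, 0.70 higher on the log2 scale in croton oil, against 10.8% of features. It was at 0.56, short of 1.5-fold, when clusters replaced the gate. These shares are near the background and are no result about the set. The median log2 difference without Cd74, which set the gate, was 0.01 after croton oil (all features -0.03) and 0.02 after microneedles (all features 0.03). With Cd74 it was 0.17 and 0.01. A gene was called divergent when it stood at least 1.5-fold from the median of the set, Cd74 included. H2-DMb2 (0.84 above) and H2-Oa (0.96 below) diverged after croton oil and H2-Oa (1.09 below) after microneedles, the comparisons sharing the untreated library, and they did so from the median without Cd74 too. Since H2-Oa was compared only through its untreated level, its divergence and its place in these counts support nothing about it, and with a mean of at least 50 CPM it was not compared. The values in Ccr7-negative cells alone were alike, with H2-DMb2 at 1.02 and H2-Oa at -0.79 after croton oil and H2-Oa at -1.08 after microneedles.

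**Figure D2:**
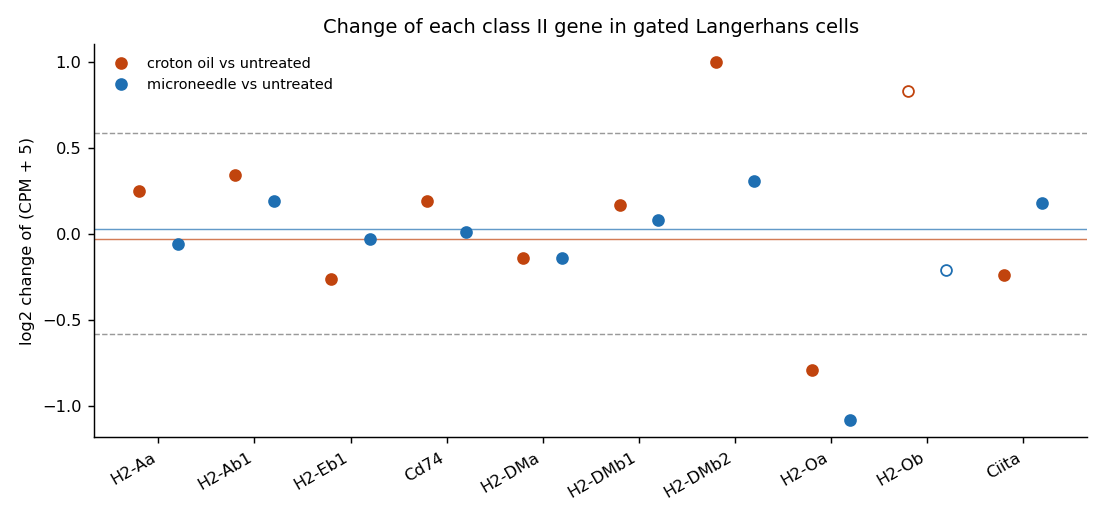
Log2 difference of CPM + 5 from untreated for each gene, croton oil in orange and microneedle in blue. Open circles are below the mean of 20 CPM, dashed lines mark 1.5-fold, and the thin coloured lines mark the median of all features. H2-DMb2 (1.00, croton oil), H2-Oa (-0.79 and -1.08) and, as an open circle, H2-Ob (0.83, croton oil) lie outside the dashed lines.

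Several genes around the class II molecules in the pathway differed at 1.5-fold. Of a list of 45 genes of class II transcription, trafficking and degradation, 36 could be compared in each treatment. After croton oil 10 were higher and 5 lower, where 29.8% of all features differed, and after microneedles 4 were higher and 3 lower, where 14.3% did. H2-Ea after croton oil and H2-Eb2 after microneedles are among the higher genes only through the treated library, since they lay under 20 CPM in untreated cells, so no more is read from these counts. H2-Ea, the alpha chain that pairs with H2-Eb1, was at 1.36, 138 and 1.44 CPM, a log2 difference of 4.49 in croton oil. Its signal was split between cells: 45.9% of Ccr7-negative croton oil cells held no H2-Ea UMI, where Poisson counting gives 18.5%. The mice were outbred, and the part of treatment or of MHC haplotype was not tested. Prdm1, whose product BLIMP-1 represses Ciita, was at 49.1, 168 and 147 CPM and higher in both treated libraries (1.67 and 1.49), while Ciita stayed within 1.5-fold. Marchf1, an E3 ubiquitin ligase that sends surface class II to lysosomes, was at 348, 111 and 189 CPM, lower by log2 differences of -1.61 and -0.86. Cd83, which opposes MARCH1, was at 1565, 691 and 836 CPM, with -1.17 and -0.90. Tfeb, a regulator of lysosome genes, was lower in both (-0.93 and -0.73). Among the lysosomal enzymes the cysteine protease gene Ctsz was higher in both (1.56 and 0.72), Lgmn (legumain, 1.14) and Ifi30 (a thiol reductase that unfolds antigens, 0.96) passed 1.5-fold in croton oil, and Ctss, cathepsin S, did not pass it in either (776, 1003 and 931 CPM). Irf4 (0.72) and the class II beta gene H2-Eb2 (0.70) completed the microneedle list.

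The Ccr7-positive cells were those with at least 1 Ccr7 UMI, held by 19 gated untreated cells (0.220%), 294 after croton oil (4.97%) and 69 after microneedles (1.30%). Keratinocytes held a Ccr7 UMI in 0 of 236, 9.17% and 3.12% of cells at their greater depth. A single UMI therefore cannot be told apart from RNA of other cells, and the levels were also read by the number of Ccr7 UMIs. In gated croton oil cells the chain genes were near their Ccr7-negative level. H2-Aa was at 9929 CPM in Ccr7-positive against 11471 in Ccr7-negative cells, and H2-Eb1 at 6983 against 7250. The DM genes were lower, H2-DMa at 557 against 1064 CPM (log2 difference -0.93) and H2-DMb1 at 447 against 820 (-0.87), while H2-DMb2 was at 227 against 268 (-0.23). These 2 of 7 genes were 1.5-fold lower, against 6.48% of features, and both diverged from the median of the set, -0.24. Neither diverged when no doublets were removed, and H2-DMa alone did when the Epcam limit was scaled to depth. In microneedle cells H2-DMa was at 748 against 1042 CPM (-0.48) and H2-DMb1 at 503 against 756 (-0.58), and 0 of 7 genes reached 1.5-fold lower, against 2.31% of features. H2-DMb1 lay just inside the limit and passed it under other scalings, and both genes diverged from the set in microneedle cells with at least 2 Ccr7 UMIs. In the 19 untreated cells H2-DMa was at 630 against 1144 CPM and H2-DMb1 at 318 against 711. H2-Ob, low throughout, was at 15.6, 17.7 and 8.58 CPM in the Ccr7-positive cells (on 5, 81 and 13 UMIs), against 4.06, 10.8 and 2.74 in the Ccr7-negative.

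That comparison is bounded by the gate, since a cell must hold Cd74 to enter it. Cells were therefore also taken by Epcam and at least 1 UMI of Cd207, with no Cd74 term. A single Cd207 UMI can be RNA of other cells. Keratinocytes outside the Cd74 gate held one in 44.9% (untreated), 24.3% (croton oil) and 38.5% (microneedle) of cells at 24878 to 50698 UMIs. The shares in Cd74-gated cells were 97.3%, 76.9% and 95.2%. At 3000 UMIs the shares were 16.7%, 3.08% and 15.4% against 76.6%, 46.5% and 65.5%. Keratinocytes also held Epcam, at 22.2% to 33.5% of the Langerhans cell level, and the part of such cells in the values below was not tested. Of the Ccr7-positive cells so chosen, 41.5% in croton oil (181 of 436, exact binomial 95% interval 36.8% to 46.3%) and 45.9% in microneedle (56 of 122, 36.8% to 55.2%) lay below 0.8% Cd74, against 4.0% and 1.72% of Ccr7-negative cells and 0 of the 17 Ccr7-positive untreated cells. They were not shallow, with median depths of 15202 and 16879 UMIs against 13027 and 17503 in Ccr7-negative cells. Cells just outside and just inside the limit were few among the Ccr7-positive: 9 had 0.7% to 0.8% Cd74 and 2 had 0.8% to 0.9% in croton oil, and 1 and 0 in microneedle, whereas 124 and 45 were below 0.2%.

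**Figure D3:**
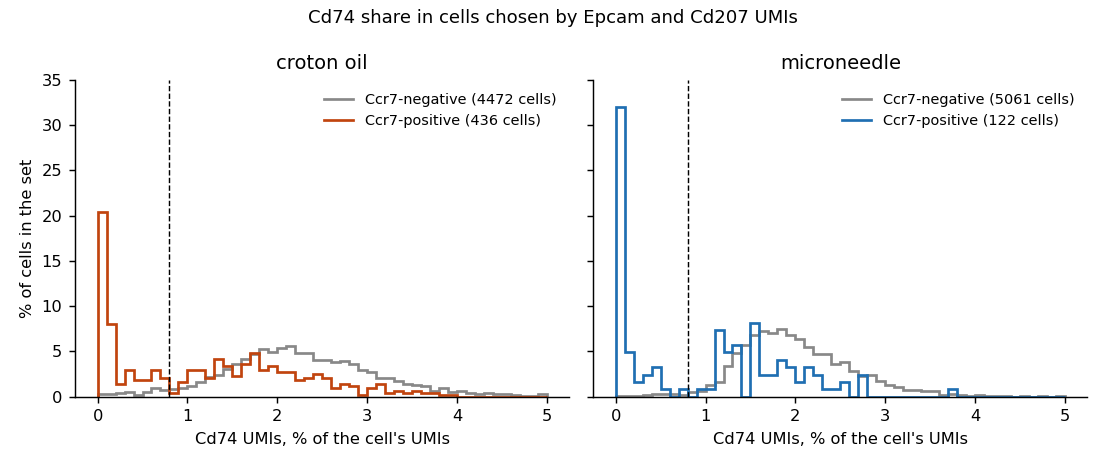
Share of Cd74 in a cell's UMIs (x axis, %, values above 5 placed in the last bin) for cells chosen by Epcam and Cd207, as % of the cells in each set (y axis). Grey is Ccr7-negative and colour Ccr7-positive, and the dashed line is the 0.8% limit; of the Ccr7-positive cells, 28.4% (croton oil) and 36.9% (microneedle) lie below 0.2%, apart from the main peak.

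With no Cd74 term the chain genes, Cd74, the DM genes and Ciita were lower in the Ccr7-positive cells of both treated libraries. In croton oil H2-Aa was at 5862 against 10807 CPM, H2-Ab1 at 5038 against 9821, H2-Eb1 at 4188 against 6900 and Cd74 at 10837 against 21229. H2-DMa was at 325 against 1016 CPM, H2-DMb1 at 257 against 778, H2-DMb2 at 132 against 262 and Ciita at 115 against 221. In microneedle the same pairs were 4887 and 8977 for H2-Aa, 4827 and 8986 for H2-Ab1, 4665 and 8277 for H2-Eb1, and 10255 and 19111 for Cd74. H2-DMa was at 473 against 1023 CPM, H2-DMb1 at 310 against 739, H2-DMb2 at 87.5 against 159 and Ciita at 136 against 299. All 7 of 7 genes compared were 1.5-fold lower in both libraries, against 11.5% of features in croton oil and 9.22% in microneedle, and the set's median was -0.96 and -0.90 (all features -0.05 and -0.06). In croton oil H2-DMa and H2-DMb1 lay lowest, at -1.63 and -1.58, and diverged from the median. In microneedle H2-DMb1 was at -1.24, with H2-DMa and Ciita both at -1.10, and none diverged. H2-Ob, too low to be compared, was at 11.5 against 10.9 CPM in croton oil and at 7.66 against 2.69 CPM, on 19 UMIs, in microneedle. H2-Oa was at 9.40 against 16.1 CPM and 7.66 against 12.2. In the 17 untreated Ccr7-positive cells, all above the Cd74 limit, H2-Aa was at 8336 against 9298 CPM, H2-DMa at 655 against 1114, H2-DMb1 at 329 against 692, and H2-DMb2 at 150 against 126.

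**Figure D4:**
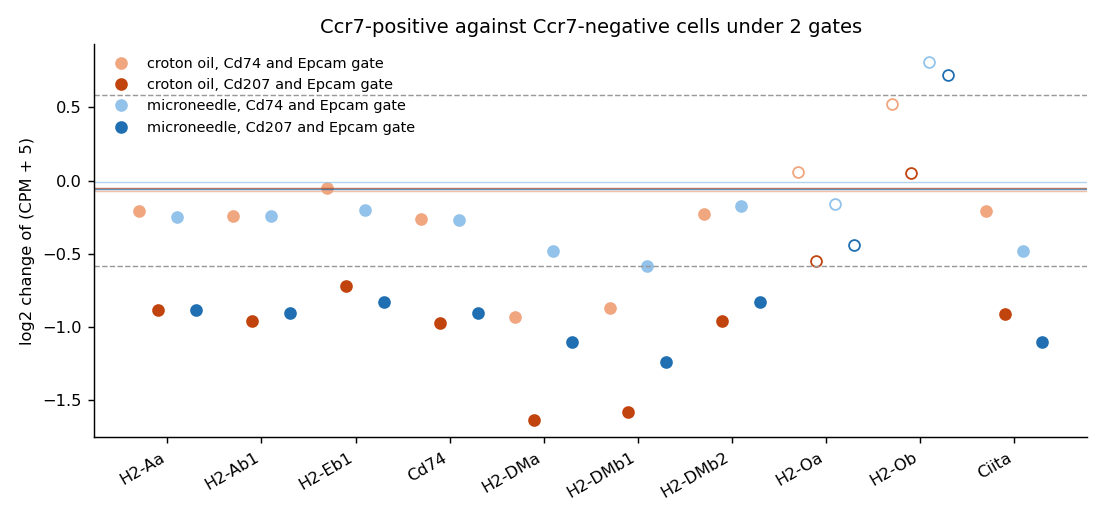
Log2 difference of CPM + 5, Ccr7-positive against Ccr7-negative cells, for each gene in the croton oil and microneedle libraries, with the gate on Cd74 and Epcam (pale) and on Cd207 and Epcam (dark). Dashed lines mark 1.5-fold, thin lines the median of all features, and open circles genes below a mean of 20 CPM; without the Cd74 term every dark filled point lies at or below -0.72, and H2-DMa and H2-DMb1 lie lowest in croton oil.

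H2-Aa, H2-DMa and Cd74 were lowest in the cells with 5 or more Ccr7 UMIs, though not every gene fell at each step. In croton oil cells with 0, 1, 2 to 4 and 5 or more Ccr7 UMIs (4472, 126, 53 and 257 cells), H2-Aa was at 10807, 8845, 8233 and 4069 CPM. H2-DMa was at 1016, 708, 353 and 143 CPM over the same cells, and Ciita at 221, 238, 126 and 57.0. H2-Eb1 was at 6900, 5849, 6696 and 2975 CPM. In microneedle cells (5061, 46, 10 and 66) H2-Aa was at 8977, 8010, 4836 and 2682 CPM, H2-DMa at 1023, 926, 360 and 169, and Ciita at 299, 223, 151 and 72.4. H2-Ob did not follow them, at 2.69, 8.43, 15.6 and 5.97 CPM in microneedle. The Ccr7-positive cells below the Cd74 limit, which the limit chose, held 1307 CPM of H2-Aa, 59.9 of H2-DMa and 16.5 of Ciita in croton oil, and 684, 53.5 and 12.9 in microneedle. They held Ctss at 558 and 815 CPM and Cd83 at 910 and 1815, and their Ccr7 was at 890 and 1065 CPM. A cluster led by Fscn1, Ccr7 and Ccl22 held 90.6% and 92.9% of them.

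Around the class II genes, the pathway list in Ccr7-positive cells without the Cd74 term held 8 higher and 4 lower of 39 genes compared in croton oil, where 9.03% of features were higher and 11.5% lower. In microneedle it held 8 higher and 1 lower of 39, where 9.56% were higher and 9.22% lower. Cxcr4 in both libraries and H2-Eb2 in croton oil passed the 20 CPM rule only through the Ccr7-positive cells, so no more is read from the counts of higher genes. Marchf1 was lower in both, at 30.4 against 113 CPM (-1.73) and 111 against 186 (-0.72). Cd83 was higher in both, at 1021 against 669 CPM (0.60) and 1409 against 826 (0.77). Cxcr4 (2.08 and 2.65), a chemokine receptor that associates with CD74, Ctsz (1.33 and 1.51), the kinase gene Jak2 (1.11 and 1.58) and the transcription factor gene Irf8 (1.17 and 1.49) were higher in both libraries. H2-Ea was lower in croton oil, at 69.5 against 134 CPM (-0.90), and H2-Eb2 higher (0.81). Ctss was at 735 against 946 and 840 against 904 CPM, below 1.5-fold in each.

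Macrophages, cells outside the gate in the one cluster that fitted the monocyte and macrophage markers, numbered 384 in microneedle, 6 in croton oil and 3 in untreated, so only the microneedle library was compared. In that cluster 12 of the 15 untreated cells and 2 of the 8 croton oil cells lay inside the gate, and 0 of the 384 microneedle cells. The few cells left outside it held more class II than the microneedle macrophages, with H2-Aa at 9100 CPM and Cd74 at 18021 in the 3 untreated cells, and 2534 and 3238 in the 6 croton oil cells. In microneedle the 7 genes compared were lower than in Ccr7-negative Langerhans cells, where 27.6% of features were. Nothing is read from that count, since H2-DMb2 and Ciita passed the 20 CPM rule only through the Langerhans cells, which were themselves chosen by Cd74. H2-Aa was at 380 against 9185 CPM, Cd74 at 681 against 19551, H2-DMa at 43.4 against 1042 and Ciita at 6.46 against 303. These values are 4.14%, 3.48%, 4.17% and 2.13% of the Langerhans cell level, and H2-Ab1, H2-Eb1, H2-DMb1 and H2-DMb2 stood at 3.38% to 4.42%. The neutrophils of the same library (394 cells), which should lack class II, stood at 4.16% for H2-Aa, 3.27% for Cd74, 3.08% for H2-DMa and 2.85% for Ciita, at 4.80% for Cd207 and at 2.87% for Epcam. The macrophages themselves stood at 2.56% for Cd207 and 1.19% for Epcam. Their class II values lay near the neutrophils', and a low level of their own cannot be told apart from free RNA. Ctss, at 1560 CPM in macrophages, 932 in Ccr7-negative Langerhans cells and 102 in neutrophils, did not follow the class II genes, nor did the lysosomal protease genes Ctsl (2094 against 27.2 CPM) and Lgmn (2892 against 64.0). Median depths were 6673 UMIs in macrophages and 3270 in neutrophils. Keratinocytes held more, 11.1% to 14.1% of the Langerhans cell level over the 8 genes above 100 CPM there, with 18.3% for Cd207 and 22.2% for Epcam.

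**Figure D5:**
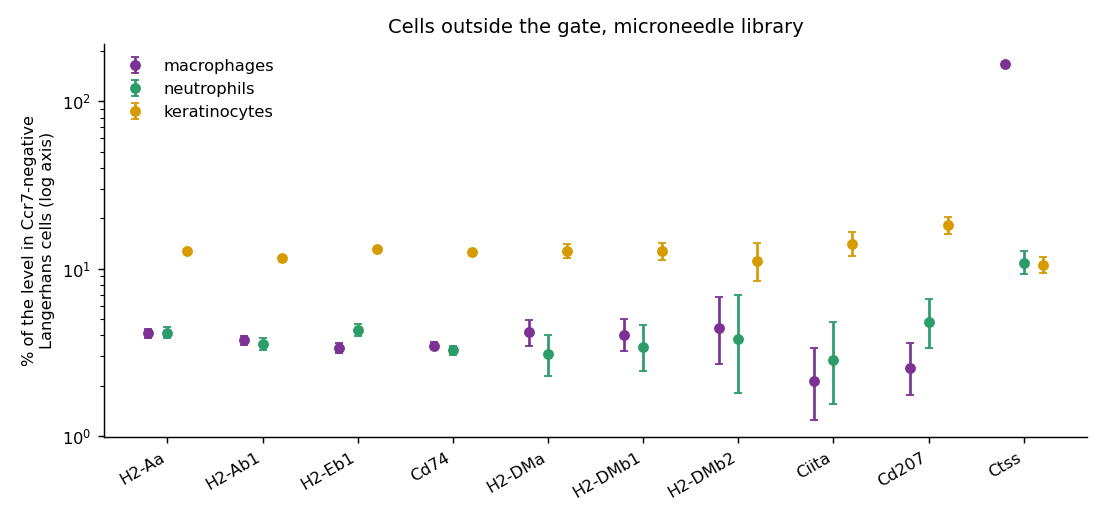
Levels in macrophages (purple), neutrophils (green) and keratinocytes (yellow) outside the gate, as % of the level in Ccr7-negative Langerhans cells of the microneedle library on a log axis, with 95% counting intervals. For the 8 class II genes plotted macrophages lie near neutrophils, between 2.13% and 4.42%, whereas for Ctss macrophages stand at 167%.

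Cell-to-cell spread differed among the genes. The coefficient of variation beyond Poisson noise in Ccr7-negative cells was 0.233, 0.279 and 0.233 for H2-Aa, and 0.214, 0.411 and 0.218 for H2-Eb1, so H2-Eb1 was more uneven in croton oil. It was 0.346, 0.617 and 0.570 for H2-DMb2 and 0.600, 0.793 and 0.870 for Ciita. Across 11 groups of at least 50 cells (library by cell class), the 8 members of at least 100 CPM each correlated with their mean log2 profile at 0.9843 (H2-DMb2) to 0.9992 (H2-Ab1). The 5 genes outside the set with the most similar profiles, of 1882 ranked, were Chst10 (Pearson r = 0.9903), Wnt9a (0.9886), Tbc1d4 (0.9886), Tamalin (0.9884) and P2ry10 (0.9870). The groups share 3 libraries, and the profiles mostly separate Langerhans cells from the other classes. Cd74, which set the gate between them, is in the mean profile, as is each member, so the high values are largely fixed by how the cells were chosen.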

How the data were processed

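The 3 libraries were made with a 10x Genomics 3′ kit, per the labels' protocols, and the authors counted them with Cell Ranger (version 8.0.0 per the file headers, 8.0 on GRCm39 per the submitters' processing notes). The deposited values are UMI counts per gene and filtered cell barcode, 9876 untreated, 8241 croton oil and 6945 microneedle cells with 117178809 to 127666928 UMIs a library. Filters were at least 500 genes and at most 10% mitochondrial UMIs. Scrublet's automatic threshold marked 1, 0 and 0 cells and so had not worked, and the highest scores were removed instead, in proportion to each library's cell number (773, 532 and 376 cells). Cells were clustered jointly with scanpy 1.11.5 and Leiden (2000 variable genes without the 10 class II genes, 30 components, 15 neighbours, resolution 0.5), and clusters were named from marker lists. Counts were summed per library and class. The comparison code was tested on simulated data. edgeR 4.0.16 gave only the scaling factors of an alternative, and no count model was fitted since each group is 1 library. All 10 members were named, with up to 8 pathway genes past 1.5-fold per comparison, the furthest, and H2-Ea, Ctss, Cd83 and Marchf1 always. The members and lists were chosen with earlier results of these data known. Alternatives covered scaling, pseudocount, filters, gates, doublets and Ccr7 limits. Promoters and locations came from GRCm39 with GENCODE M39.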

Additional observations from a re-analysis of the deposited data

How the results depend on the processing

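Of 97 alternative counts of differing genes, 77 stayed within 1.5 times the main count and 20 did not. The Ccr7 comparison within the Cd74 gate was the least stable. In microneedle its count of 0 became 1 with TMM factors, with the total taken without mitochondrial and ribosomal protein genes or without the 10 genes, with a pseudocount of 1 CPM, with a mean over cells and with no doublet removal (H2-DMb1, -0.59 to -0.66 in each), and 1 with no filter on low values (H2-Ob, 0.81). It became 2 with Cd74 at 0.4%, 2 without cells with cell cycle or T cell markers, 2 with at least 2 Ccr7 UMIs and 6 for cells with Ccr7 and Fscn1 against neither (9 cells). In both libraries it became 7 with the gate on Epcam and Cd207 and 7 with Langerhans cell-like clusters in place of the gate, and in croton oil the 2 became 4 with Ccr7 and Fscn1. In croton oil, the divergence of H2-DMa and H2-DMb1 from the set was lost with no doublet removal, and that of H2-DMb1 with the Epcam limit scaled to depth. A mean of at least 50 CPM left out H2-Oa, so that croton oil kept 1 and microneedle 0. Croton oil against microneedle gave 2 with no filter on low values (H2-Ob, 1.05) and 0 with the clusters. The cause was not tested for any of these beyond what each setting leaves out. Of 970 alternative differences of single genes, 618 stayed within the counting interval of the main value and 352 did not. H2-Eb1 after croton oil went from -0.26 to 0.10 in cells with no H2-Ea UMI, an alternative chosen after seeing the data, H2-Ob, under 20 CPM, went there from 0.83 to -0.04, and no gene counted as different changed sign. TMM factors moved the median of all features after croton oil from -0.03 to 0.08 and for croton oil against microneedle from -0.06 to 0.07. They turned the direction of Cd74 after microneedles (0.01 to -0.01), which went to -0.04 with the total without mitochondrial and ribosomal protein genes. H2-DMa, level between the treatments (-0.00), ranged from -0.14 to 0.14. With the clusters, H2-DMb1 went from 0.17 to -0.02 after croton oil and from 0.09 to -0.05 between the treatments. With the median taken without Cd74, chosen after seeing the data, H2-DMb2 also diverged between the treatments (0.61). The divergences reported after either treatment and for Ccr7 in croton oil remained. Those in microneedle cells with at least 2 Ccr7 UMIs were not taken this way. In untreated Ccr7-positive cells H2-DMa went from -0.72 to -0.53 and no longer diverged. With the keratinocyte level taken off, the macrophage H2-Aa went from -4.58 to -10.65, a value fixed by the pseudocount since none of the macrophage signal was left. No paired analysis was possible because each group had 1 library. The macrophage comparison was not run without doublet removal or without the quality filter, since clusters were defined on the cells kept. At this depth H2-Oa and H2-Ob rest on the fewest UMIs.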

Other observations

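The croton oil library was split in its H2-Ea signal, a pattern singled out after its values were seen. Of 5623 Ccr7-negative gated cells, 45.9% held no H2-Ea UMI, where Poisson counting at the library's mean level gives 18.5%. Among cells of at least 8000 UMIs, 2384 held none and 1612 held 3 or more, at median depths of 12639 and 13490 UMIs. H2-Eb1, whose chain pairs with that of H2-Ea, was at 9299 CPM in the cells with none and 5505 in those with 3 or more, while H2-Aa (12085 and 10795 CPM) and H2-Ab1 (10071 and 10412) were close. H2-Ob was at 3.25 and 17.3 CPM and H2-DMb2 at 225 and 305. Of the class I genes, H2-D1 was at 366 and 609 and H2-M2 at 443 and 759, while H2-K1 was close, at 159 and 185. Of 6212 genes compared, 63 were 1.5-fold apart, and 9 of these (14.3%) lie on chromosome 17, which holds 4.86% of the genes compared. In all croton oil cells with no H2-Ea UMI, H2-DMb2 remained 0.76 above untreated on the log2 scale and H2-Oa 0.96 below, with H2-Eb1 at 0.10. How many mice the library holds, and which MHC haplotypes they carried, is not given by the labels, and the part of either was not tested.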
